A study of Mus musculus with 6 samples.

Results

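The 10 genes described here mark osteoclasts, the cells that resorb bone and tooth tissue, or carry the signal that forms them. They were Acp5, Ctsk, Mmp9, Oscar, Calcr, Dcstamp, Atp6v0d2, Tnfrsf11a, Tnfsf11 and Tnfrsf11b. The genes were listed by name, with no rule on their values, although earlier results of these data were known, and all 10 were present among the 19060 genes of a table of RNA sequencing counts from mouse incisors. In incisors of mice with Fgfr1 targeted in Gli1+ cells, Ctsk was 2.03-fold higher and was the only gene past the study's threshold among the 7 that passed a filter on low counts, where 10.9% of all genes tested were called higher. This call was lost in 10 of 15 alternative settings. Tnfsf11, which encodes the osteoclast-forming ligand, was counted in every control sample and in no mutant sample. It did not pass the filter, and in a fit without it Tnfsf11 was past the same threshold with edgeR but not with DESeq2. Of all genes at so low a control level, 27.9% had 0 counts in every mutant sample. Tnfrsf11b, which encodes the decoy of that ligand, was higher in every mutant sample than in every control sample, as were 14.1% of all genes tested. None of these differences passed the adjustment over all genes in edgeR's test.

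Osteoclasts form when precursors of the monocyte and macrophage lineage fuse into cells with many nuclei, which then dissolve mineral with acid and cleave the collagen matrix with proteases. The signal comes from RANKL, the ligand encoded by Tnfsf11 and made by osteoblast-lineage and other stromal cells, which binds the receptor RANK, encoded by Tnfrsf11a, on the precursors. Osteoprotegerin, the product of Tnfrsf11b, is secreted and binds RANKL in place of the receptor. Osteoclasts are known in this tissue for resorbing the alveolar bone around growing and erupting teeth.

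Proximal incisor ends were taken from mice injected with tamoxifen at 1 month of age, 1 week after the injection, and their RNA was sequenced in 3 control and 3 mutant samples. In its figures the study gives control mice without Cre as Fgfr1fl/fl, carrying floxed Fgfr1 alleles, whereas the labels name the control genotype wild type. Mutant mice carried floxed Fgfr1 alleles and the Gli1-Cre driver, which the study's methods give as Gli1CreER, a Cre that tamoxifen activates in Gli1+ cells. Control mice are listed in the methods among those injected with tamoxifen, so the injection was shared by both groups. The floxed alleles were shared if the sequenced controls were Fgfr1fl/fl. Since the driver acts in Gli1+ cells alone, RNA of the whole tissue mixed deleted with intact cells, and the osteoclast lineage was not given as a target. The labels number the samples but do not state that each came from another animal, so p-values measure the spread between these samples.

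Total counts were 32292649, 31060222 and 32712448 in control samples 1, 2 and 3, and 5276557, 11819576 and 11358282 in mutant samples 1, 2 and 3. Every mutant sample was thus shallower than every control sample, and mutant sample 1 was the shallowest. After rounding, 3.95, 3.83 and 3.96% of the genes had a count of 0 in the control samples, against 30.2, 17.1 and 19.7% in mutants. Levels are given as CPM, counts relative to library size after scaling by the upper quartile of each sample. Where no read was counted, up to 3 counts remain possible, or 0.0874, 0.0825 and 0.0867 CPM in controls and 0.655, 0.256 and 0.302 CPM in mutants. These limits cover counting error only.

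The targeted gene was checked against the labels. Fgfr1 stood at 529, 924 and 434 CPM in controls and at 148, 318 and 262 CPM in mutants, and the groups did not overlap. Its log2 fold change was -1.37 (standard error 0.40), and the p-values were 0.00846 unadjusted and 0.0881 adjusted (edgeR, quasi-likelihood). Correcting each library for its trend on length and GC content cut the Fgfr1 value to -0.75 (adjusted p = 0.252, edgeR). The tissue label was checked by Amelx, which encodes the enamel matrix protein amelogenin, and by Dspp, a product of odontoblasts. Both were detected in all 6 samples, Amelx between 15184 and 66940 CPM and Dspp between 1589.8 and 7742 CPM.

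Levels can be compared between genes only per length, as CPM per kb of the longest annotated transcript. In the control samples Ctsk, the collagen-cleaving protease cathepsin K, had the highest mean of the 10 genes at 73.1 ± 21.1 CPM per kb (SD, n = 3). Acp5, which encodes the tartrate-resistant acid phosphatase used to stain osteoclasts, followed at 36.4 ± 12.9 CPM per kb. The ranges of Ctsk and Acp5 overlapped between samples, although Ctsk was the higher of the pair in 3 of 3 control samples. Mmp9, a gelatin-cleaving metalloproteinase, came next at 9.55 ± 5.17 CPM per kb, and Tnfrsf11b at 3.76 ± 0.34 CPM per kb, each apart from its neighbours. Atp6v0d2, a subunit of the proton pump, had 0.782 ± 0.324 CPM per kb, and its range overlapped that of Tnfrsf11a at 0.363 ± 0.162 CPM per kb. Tnfrsf11a, Tnfsf11 (0.323 ± 0.132), Dcstamp (0.317 ± 0.130) and Oscar (0.191 ± 0.058 CPM per kb) each overlapped the next, although Tnfrsf11a was above Oscar in 3 of 3 control samples. Calcr, the calcitonin receptor, was lowest at 0.0749 ± 0.0363 CPM per kb, below the whole range of Oscar. The 3 resorption genes and Tnfrsf11b thus stood well above detection, while the other 6 genes lay at levels where 0 counts were common in the mutant libraries.

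Zeros at these levels were common in the mutant samples over the whole table, and the part of depth in them was not tested. Counts of 1 to 9 were held by 8.79, 8.89 and 10.1% of genes in controls and by fewer, 5.92, 4.58 and 4.97%, in mutants. Of the 4780 genes with a control mean under 1 CPM, 27.9% had 0 counts in all 3 mutant samples and 38.7% were above 0 in only 1 of them. Of the 2956 genes with a control mean from 1 to under 5 CPM, these shares were 7.68 and 24.1%, and of the 11324 genes at 5 CPM or more they were 0.0530 and 0.698%. Oscar, Calcr, Dcstamp and Tnfsf11 belong to the lowest class by their control means, and Atp6v0d2 and Tnfrsf11a to the middle one.

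The question put to each gene was whether its level differed between control and mutant incisors. Of the 10 genes, 7 passed edgeR's filter on low counts and were tested among 15826 genes. The filter removed Oscar, Calcr and Tnfsf11, whose fold changes below come from a fit of all 19060 genes without it. The study's threshold (unadjusted p under 0.05, over 1.5-fold) was passed by 1 of the 7 genes upwards, against a background of 10.9% of all genes tested, and by 0 downwards, against 8.92%. At an adjusted p under 0.05 the 7 genes gave 0 calls in either direction, against 3.72% of all genes higher and 3.06% lower. At an unadjusted p under 0.05 alone Ctsk was the only one, and DESeq2 and limma gave 0 adjusted calls among these 7 as well. The median log2 fold change of the 7 genes was 0.75, with 6 positive and 1 negative, beside a median of -0.04 over all genes tested.

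Ctsk lies on chromosome 3 of GRCm38 from 95499256 to 95509362, on the plus strand. It had 129, 129 and 73.6 CPM in controls and 311, 103 and 258 CPM in mutants. Mutant samples 1 and 3 lay above every control sample, and mutant sample 2 lay between the control samples. The mean was 110.5 ± 32.0 CPM in control and 224.0 ± 107.8 CPM in mutant samples (SD, n = 3 each). The log2 fold change was 1.02 (standard error 0.43), and edgeR gave an adjusted p of 0.228 (0.0430 unadjusted). Over all alternatives tried, the adjusted p of Ctsk ranged from 0.0581 to 0.683. The unadjusted call was lost without control sample 1, 2 or 3 or mutant sample 1 or 3, when the log2 fold change was between 0.69 and 1.14, and it was also lost under TMM and total-count scaling and with limma. Bulk RNA cannot tell fewer or more osteoclasts from less or more RNA per osteoclast, and Ctsk is known to be expressed by some periosteal and dental follicle cells as well.

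The promoter of Ctsk is shown because this gene carried the single call. The 250 bases upstream of the RefSeq start (GRCm38.p6, chr3:95498960-95499209, plus strand) are printed 5′ to 3′, with capitals on the letters GAGGAA or their reverse complement, the core bound by the myeloid factor PU.1.
Ctsk: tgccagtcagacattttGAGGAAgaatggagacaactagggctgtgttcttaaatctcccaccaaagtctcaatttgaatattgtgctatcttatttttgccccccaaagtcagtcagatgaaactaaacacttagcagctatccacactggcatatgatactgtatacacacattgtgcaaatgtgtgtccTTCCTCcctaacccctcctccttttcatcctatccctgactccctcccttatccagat
The window held these letters on both strands, once each, and 28.3% of all 32817 mouse promoter windows, which reach from 250 bases before to 50 bases after each start, held them at least once. The letters searched in each promoter, on both strands, were GGAAA for the core of NFAT sites, GAGGAA for PU.1, TCACGTG and TCATGTG for the E-boxes of MITF and TFE factors, and TGANTCA for AP-1. GGAAA was present in 61.3% of all windows, TCACGTG in 3.76%, TCATGTG in 3.78% and TGANTCA in 7.81%, and GAGGAA overlaps GGAAA where an A follows it. A match in letters is a description and not evidence of binding.

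Acp5, on chromosome 9 from 22126727 to 22135711, had 42.0, 74.3 and 41.7 CPM in controls and 156, 18.4 and 72.4 CPM in mutants. Mutant sample 1 was the highest and mutant sample 2 the lowest of all 6, so the groups overlapped fully. Acp5 had a log2 fold change of 0.64 (standard error 0.64, edgeR adjusted p = 0.668). Without mutant sample 1 the value was -0.23, and without mutant sample 2 it was 1.10.

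Mmp9, on chromosome 2 from 164940780 to 164955850, is made by osteoclasts and also by neutrophils and macrophages. Its levels were 22.5, 49.2 and 19.3 CPM in controls and 81.0, 25.7 and 47.1 CPM in mutants. Mutant sample 1 was again the highest, and control sample 2 lay above mutant samples 2 and 3. Mmp9 had a log2 fold change of 0.75 (standard error 0.50, edgeR adjusted p = 0.481). It was 0.25 without mutant sample 1 and 1.29 without control sample 2, when Mmp9 passed the study's threshold and Ctsk did not. Correcting each library for its trend on length and GC content gave 1.22 for Mmp9, past the study's threshold, while it gave 0.48 for Ctsk, which then missed it.

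The genes of cell fusion and acid secretion stood at lower levels. Atp6v0d2, on chromosome 4 from 19876841 to 19922605, encodes a subunit of the vacuolar proton pump that osteoclasts also use to fuse. It had 1.34, 2.91 and 1.70 CPM in controls and 18.3, 2.13 and 2.12 CPM in mutants. Mutant samples 2 and 3 lay within the control range, and mutant sample 1 stood far above it with 84 counts. The log2 fold change was 1.91 (standard error 1.11, edgeR adjusted p = 0.401), and without mutant sample 1 it was 0.08.

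Dcstamp, on chromosome 15 from 39745930 to 39760938, encodes a membrane protein needed for osteoclast precursors to fuse. Its counts were 24, 31 and 12 in controls and 31, 0 and 0 in the mutant samples, which is 0.699, 0.852 and 0.347 CPM against 6.77, 0 and 0 CPM. The 0 counts in mutant samples 2 and 3 allow up to 0.256 and 0.302 CPM, below the lowest control sample. The log2 fold change was 1.79 (standard error 1.95, edgeR adjusted p = 0.696), and its sign rested on mutant sample 1, without which it was -7.02 (edgeR adjusted p = 0.0582), a value fitted against 0 counts and so no measure of size. Across the alternatives in which Dcstamp was tested, its adjusted p ran from 0.0582 to 0.918. It failed the filter when control counts were thinned.

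Oscar and Calcr encode surface receptors, Oscar for collagen, through which it costimulates osteoclast formation, and Calcr for the hormone calcitonin, which stops resorption. Oscar, on chromosome 7 from 3609813 to 3616157, had 8, 16 and 13 counts in controls and 51, 0 and 0 counts in mutants. Calcr, on chromosome 6 from 3685680 to 3764714, had 7, 16 and 7 counts in controls and 40, 0 and 1 counts in mutants. In both genes mutant sample 1, the shallowest library, held the most counts of any sample, and the other mutant samples held fewer than every control sample. On the CPM scale mutant sample 1 stood at 11.1 for Oscar and 8.73 for Calcr, where no control sample exceeded 0.440. The fit without the filter gave log2 fold changes of 3.37 for Oscar (adjusted p = 0.412) and 3.34 for Calcr (adjusted p = 0.378, edgeR for both). Without mutant sample 1 they were -6.17 and -2.46, fitted against 0 or 1 counts. Over the alternatives, the adjusted p ran from 0.132 to 0.985 for Oscar and from 0.171 to 0.964 for Calcr.

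The promoters of Oscar and Calcr are shown because both genes stood out in the same sample. Capitals mark GGAAA and GAGGAA or their reverse complements in the 250 bases upstream of the RefSeq starts (GRCm38.p6, chr7:3616158-3616407 for Oscar and chr6:3764714-3764963 for Calcr, both on the minus strand).
Oscar: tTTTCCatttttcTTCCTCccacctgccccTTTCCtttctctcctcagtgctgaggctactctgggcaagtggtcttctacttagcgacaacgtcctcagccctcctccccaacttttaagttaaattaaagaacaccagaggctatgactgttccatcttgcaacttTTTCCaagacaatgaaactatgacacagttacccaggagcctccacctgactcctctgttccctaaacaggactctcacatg
Calcr: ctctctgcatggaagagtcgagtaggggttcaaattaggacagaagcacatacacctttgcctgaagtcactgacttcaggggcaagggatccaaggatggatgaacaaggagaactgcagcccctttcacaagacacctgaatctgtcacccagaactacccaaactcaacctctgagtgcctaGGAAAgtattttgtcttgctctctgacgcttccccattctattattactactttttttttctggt
Oscar held GGAAA 3 times and GAGGAA once, and Calcr held GGAAA once. No E-box or AP-1 letters were found upstream of Ctsk, Oscar or Calcr, which says only that these letters are not in these windows.

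**Figure D1:**
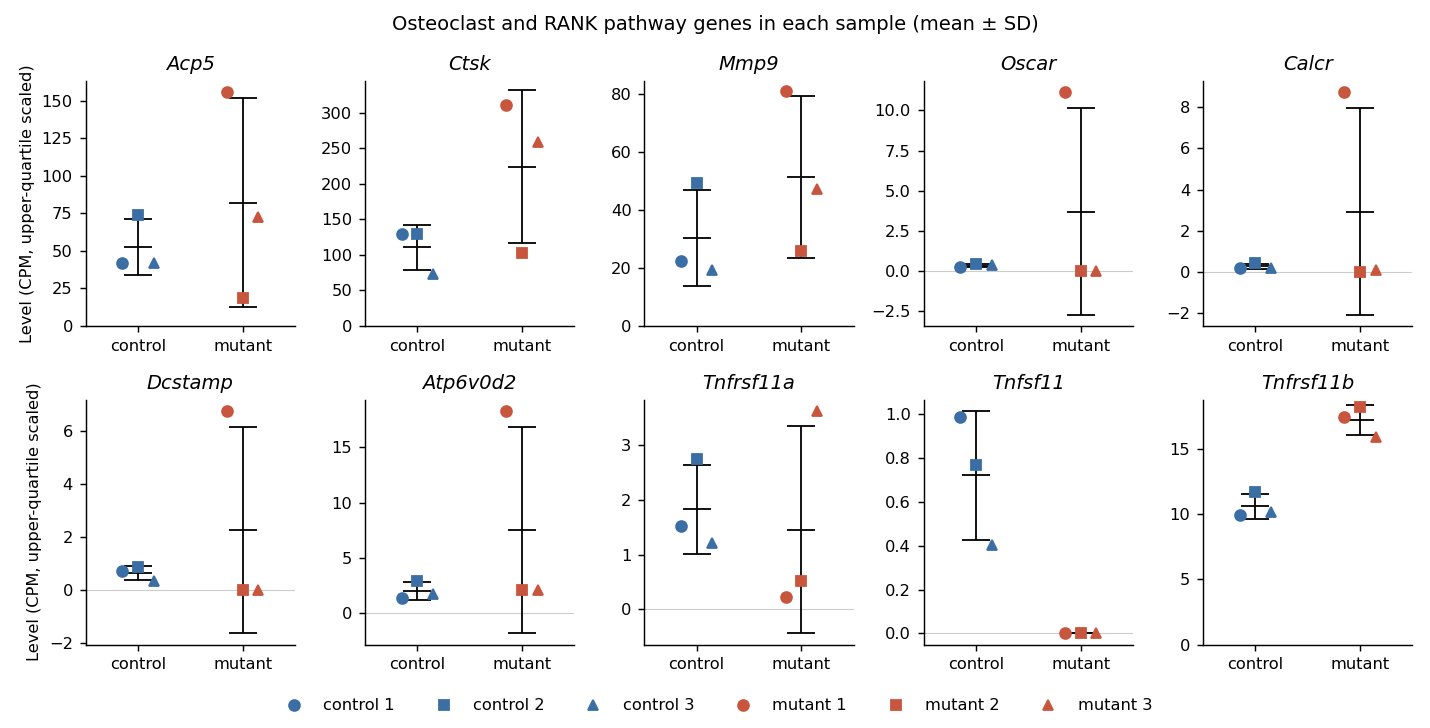
Level of each of the 10 genes in each sample, in CPM with upper-quartile scaling on a linear axis of its own for each gene, with blue symbols for control and red for mutant samples and with the mean and SD of each group in black. Mutant sample 1 is the highest point in 7 of the 10 plots, Tnfsf11 is at 0 in all mutant samples, and Tnfrsf11b separates the groups.

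Acp5, Ctsk, Mmp9, Oscar, Calcr, Dcstamp and Atp6v0d2 were all highest in mutant sample 1. Of the 7 genes tested these were 5, beside 23.8% of all genes tested that were highest there, and Oscar and Calcr were not tested. The summed level of 10 osteoclast markers, the 8 osteoclast genes of the set with Ocstamp and Itgb3, was 202.5, 276.8 and 144.4 CPM in controls and 611.6, 155.6 and 402.7 CPM in mutants. Mutant samples 1 and 3 lay above all control samples in this sum and mutant sample 2 lay within their range. Ctsk was the most abundant marker, and without it the sums were 73.6, 147.6 and 70.8 CPM in control and 301.0, 52.3 and 144.4 CPM in mutant samples. All 10 markers were counted in each control sample and in mutant sample 1, against 6 in mutant sample 2 and 8 in mutant sample 3. The osteoclast markers were therefore present in the tissue, with the largest spread among the mutant samples.

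The receptor RANK, itself among the 10 summed markers, was not highest in mutant sample 1. Tnfrsf11a, on chromosome 1 from 105780718 to 105847981, had 52, 100 and 42 counts in controls and 1, 6 and 36 counts in mutants. In CPM these were 1.51, 2.75 and 1.21 against 0.218, 0.512 and 3.63. Mutant samples 1 and 2 lay below every control sample, and mutant sample 3 lay above every one. The log2 fold change was -0.31 (standard error 1.19, edgeR adjusted p = 0.928), and it ran from -2.24 without mutant sample 3 to 0.16 without mutant sample 1, and was also above 0 without control sample 2 or mutant sample 2. The promoter window of Tnfrsf11a held none of the letters searched.

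RANKL was the gene with the lowest mutant counts. Tnfsf11, on chromosome 14 from 78277445 to 78308043, had 34, 28 and 14 counts in controls and 0, 0 and 0 counts in mutants. The control levels were 0.990, 0.770 and 0.405 CPM, and the limits that 0 counts allow in the mutant samples were 0.655, 0.256 and 0.302 CPM. The limit of mutant sample 1 lay above the level of control sample 3, so at that depth a difference between these samples was not detectable. Limits of mutant samples 2 and 3 lay below all control levels. The control mean of Tnfsf11, 0.722 CPM, was 1.78 times the mean of the mutant limits, 0.404 CPM. This gives no minimum for the difference, since the limits cover counting error only and leave out the spread between samples. Mutant sample 1 also had 0 counts of Ighm, whose lowest control level was 6.07 CPM. The filter had removed Tnfsf11 because it needs about 0.466 CPM in 3 samples, which the gene reached in control samples 1 and 2. In the fit of all 19060 genes without the filter, edgeR gave Tnfsf11 an adjusted p of 0.105 (0.00848 unadjusted), past the study's threshold, whereas DESeq2 gave an unadjusted p of 0.0847. The adjusted p ran from 0.0275 with limma, also without the filter, to 0.448 over the alternatives. The groups did not overlap, with the mutants below the controls as for 16.3% of the genes tested. Of all genes with a control mean under 1 CPM, 27.9% had 0 counts in every mutant sample, against 7.68% from 1 to under 5 CPM. Tnfsf11 lay in the upper part of the lower class, and no share was computed for genes nearer its level.

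The promoter of Tnfsf11 is shown because its transcript was the one absent from the mutant counts. The window lies at chr14:78308044-78308293 on the minus strand (RefSeq, GRCm38.p6), and capitals mark GGAAA.
Tnfsf11: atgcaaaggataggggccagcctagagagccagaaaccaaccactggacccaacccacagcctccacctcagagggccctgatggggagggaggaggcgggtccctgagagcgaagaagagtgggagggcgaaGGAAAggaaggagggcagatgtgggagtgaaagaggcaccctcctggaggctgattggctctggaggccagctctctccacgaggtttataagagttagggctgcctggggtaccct
GGAAA occurred once and the other letters searched did not occur. Of the 10 genes, 6 had a window among the RefSeq promoter windows used here, and Mmp9, Dcstamp, Atp6v0d2 and Tnfrsf11b had none among them.

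Osteoprotegerin had the smallest SD relative to its mean among the controls. Tnfrsf11b, on chromosome 15 from 54250619 to 54278484, had 9.93, 11.7 and 10.1 CPM in controls and 17.5, 18.2 and 15.9 CPM in mutants. The means were 10.6 ± 0.95 and 17.2 ± 1.16 CPM (SD, n = 3 each), and every mutant sample lay above every control sample, as for 14.1% of all genes tested. The log2 fold change was 0.70 (standard error 0.41), and edgeR gave an adjusted p of 0.408 (0.129 unadjusted). Leaving out any sample kept it between 0.64 and 0.78. Scaling by total counts gave 0.43 and the length and GC correction 0.28, so the size of the Tnfrsf11b difference depended on how libraries were scaled.

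Since RANKL and osteoprotegerin oppose each other, their counts were set against each other within each sample, where the scaling cancels. Tnfsf11 made up 9.07% of the joint Tnfsf11 and Tnfrsf11b counts in control sample 1 (exact Clopper-Pearson 95% interval 6.36 to 12.4%), 6.18% in control sample 2 (4.15 to 8.81%) and 3.84% in control sample 3 (2.11 to 6.35%). It made up 0% of the 80, 213 and 158 joint counts in mutants, with upper limits of 4.51, 1.72 and 2.31%. The intervals of mutant samples 2 and 3 did not reach those of control samples 1 and 2, while the interval of mutant sample 1 overlapped those of control samples 2 and 3, and that of mutant sample 3 overlapped that of control sample 3. Per kb, Tnfrsf11b exceeded Tnfsf11 by 7.96-fold, 12.0-fold and 19.9-fold in the control samples, and by 21.2-fold, 56.3-fold and 41.8-fold in the mutant samples if Tnfsf11 is put at 3 counts there. The exact upper limit of mutant sample 1 is wider than 3 counts, so mutant sample 1 is not set apart from control sample 3 by this ratio. On that basis the mean log2 ratio of Tnfsf11 to Tnfrsf11b differed by -1.57 (mutant minus control), a description without a test. The intervals cover counting error only and not the spread between samples.

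**Figure D2:**
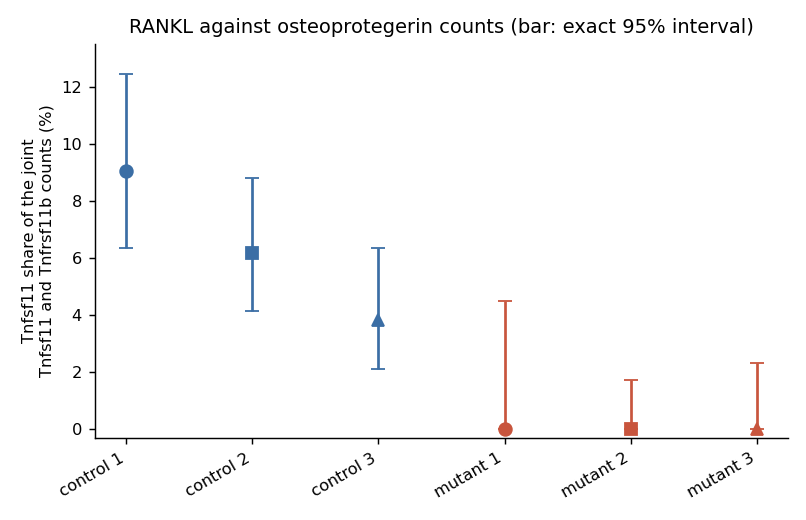
Share of Tnfsf11 in the joint Tnfsf11 and Tnfrsf11b counts of each sample, in percent, with exact 95% binomial intervals as bars. The 3 control samples lie between 3.84 and 9.07%, and the 3 mutant samples are at 0 with upper limits between 1.72 and 4.51%.

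The fold changes of the 7 tested genes were next compared between scalings and without mutant sample 1. TMM and total counts kept 6 positive and 1 negative values, although total counts moved the median of all genes from -0.04 to -0.30. Among the settings drawn, the omission of mutant sample 1 turned Acp5 and Dcstamp negative and Tnfrsf11a positive.

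**Figure D3:**
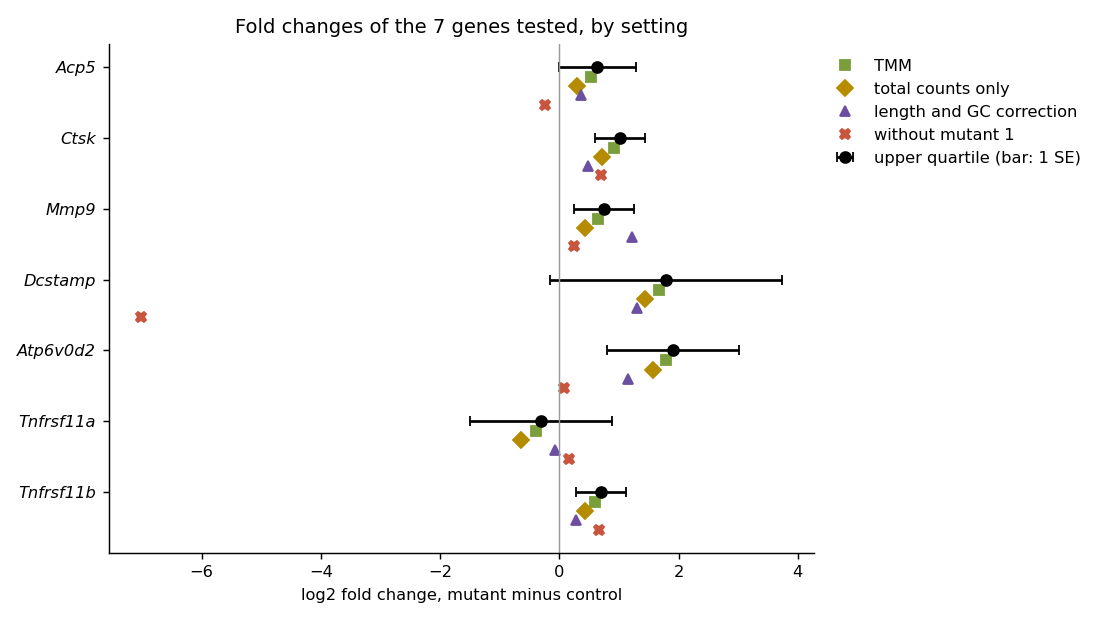
Log2 fold change of mutant minus control for the 7 genes tested, with black circles for upper-quartile scaling and bars of 1 standard error, and with coloured symbols for TMM, total counts, the length and GC correction and the fit without mutant sample 1. Dcstamp moves from 1.79 to -7.02, a value fitted against 0 counts, without mutant sample 1, whereas Ctsk and Tnfrsf11b stay above 0 in each setting drawn.

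Genes downstream of RANK were described from lists of known members. For each list the shares to read its calls against are the 10.9% of all genes tested that were higher and the 8.92% that were lower at the study's threshold. Of 15 adaptors, kinases and other regulators, all tested, 0 were higher and 2 were lower, and their median log2 fold change was -0.18. The list mixes activators with the inhibitors Traf3 and Cyld, which had log2 fold changes of -0.26 and -0.18. Traf6, the main adaptor of RANK, had 22.6, 27.6 and 24.9 CPM in controls and 36.2, 29.97 and 12.2 CPM in mutants, a log2 fold change of 0.06 (standard error 0.43). Map3k7, the kinase TAK1 that Traf6 activates, was lower at 64.6, 66.2 and 59.8 CPM against 27.9, 45.0 and 48.4 CPM (log2 fold change -0.65, standard error 0.27, unadjusted p = 0.0435, adjusted p = 0.230, edgeR). Map3k7 missed the threshold in 5 of the 6 fits that left out a sample. Map3k14 encodes NIK, the kinase of the alternative NF-kappaB pathway. It had 0.816, 1.84 and 0.925 CPM in controls and 0 counts in all mutant samples, with an adjusted p of 0.0464 in edgeR's test that ran from 0.00873 to 0.333 over the alternatives. Map3k14 passed the filter on low counts through the controls alone, and its adjusted p was 0.105 in edgeR's fit without the filter. It failed the filter when control counts were thinned, so its range covers only the 13 alternatives in which it was tested. The control mean of Map3k14 was 1.19 CPM. Of genes with a control mean from 1 to under 5 CPM, 7.68% had 0 counts in every mutant sample, against 27.9% under 1 CPM.

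Among 12 transcription factors and repressors of osteoclast formation, 0 were higher and 1 was lower, with a median of -0.26. Nfatc1, the master regulator that RANK signalling induces, was at 10.3, 21.9 and 15.6 CPM in control and 12.2, 17.7 and 13.8 CPM in mutant samples, a log2 fold change of -0.13 (standard error 0.46). The mutant samples of Nfatc1 all lay within the control range. Rela, the NF-kappaB subunit p65, was lower at 43.3, 51.8 and 44.7 CPM against 16.6, 19.4 and 37.5 CPM (log2 fold change -0.92, standard error 0.36, adjusted p = 0.198, edgeR), and had -0.38 after the length and GC correction. Its call held in 9 of 15 alternatives. It was lost under that correction and without control sample 1, 2 or 3 or mutant sample 1 or 2. Irf8, a repressor of osteoclast formation, had its highest level, 31.6 CPM, in mutant sample 1, which also had the highest osteoclast marker sum, against at most 7.81 CPM in the other samples.

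Of 8 receptors and adaptors listed with the ITAM pathway, which costimulates RANK, 1 was higher and 0 were lower, with a median of 0.57. The list mixes activating members with the inhibitory receptors Pirb and Lilrb4a, which had log2 fold changes of 0.39 and 0.67. The higher gene was Fcgr3, an activating Fc receptor, at 29.9, 17.0 and 8.29 CPM in control and 57.0, 41.4 and 37.0 CPM in mutant samples (log2 fold change 1.29, standard error 0.47, adjusted p = 0.167, edgeR). Every mutant sample of Fcgr3 lay above every control sample, but after the length and GC correction its log2 fold change was 0.74 and missed the threshold, and the call held in 10 of 15 alternatives. Tyrobp, which encodes the adaptor DAP12, and Fcer1g, which encodes the adaptor of Oscar, had log2 fold changes of 0.58 and 0.56 (standard errors 0.43 and 0.49) and did not pass the test.

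The machinery of fusion and resorption was listed as 14 genes, with a median of -0.21. Of these, 1 was higher, 3 were lower and 10 did not pass, beside 10.9 and 8.92% of all genes. RNA of the whole tissue does not show which cells these transcripts came from, and the part of osteoclasts in them was not tested. Slc4a2, an anion exchanger that balances pumped acid in osteoclasts, was lower at 75.4, 142 and 145 CPM against 42.6, 49.6 and 49.4 CPM. Its log2 fold change of -1.35 (standard error 0.29) had an adjusted p of 0.0464 in edgeR's test, from 0.00142 to 0.203 over the alternatives, and it stayed past the study's threshold in all 15 of them, although the length and GC correction cut it to -0.62. Plekhm1, an adaptor of lysosome traffic at the ruffled border, and Ckb, the brain-type creatine kinase, were lower by log2 fold changes of -1.18 and -0.78 (adjusted p = 0.188 and 0.198, edgeR). After the length and GC correction these were -0.52 and -0.10, and both missed the threshold, with the calls held in 11 of 15 alternatives for Plekhm1 and 10 of 15 for Ckb. Slc9b2, a sodium and proton exchanger, was higher at 37.3, 59.3 and 93.2 CPM in mutant against 24.97, 12.5 and 38.3 CPM in control samples (log2 fold change 1.33, adjusted p = 0.161, edgeR), a call lost without control sample 1 or 2 or mutant sample 2 or 3, when it was between 0.93 and 1.36. Tcirg1 and Clcn7, the proton pump subunit and chloride transporter of the ruffled border, had log2 fold changes of -0.19 and -0.79 and did not pass, and Ocstamp, a partner of Dcstamp in fusion, had 1.09, 0 and 3.43 CPM in mutants.

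Stromal regulators, the signals by which osteoblast-lineage cells steer osteoclast formation, were listed as 15 genes, of which 13 were in the table and 11 were tested. None was higher and 1 was lower, with a median of 0.07. Csf1, the growth factor M-CSF that precursors need beside RANKL, had 26.1, 40.1 and 15.6 CPM in control and 0.655, 22.6 and 9.78 CPM in mutant samples (log2 fold change -1.28, standard error 0.91, adjusted p = 0.509, edgeR). Mutant sample 1, with the highest osteoclast marker sum, thus had the lowest Csf1. Il34, the other ligand of the M-CSF receptor, had 0.932, 1.24 and 0.578 CPM in control and 0 counts in all mutant samples, with an adjusted p of 0.0464 in edgeR's test, from 0.00919 to 0.362 over the alternatives. It passed the filter through the controls alone and had an adjusted p of 0.105 in edgeR's test without the filter. It failed the filter when control sample 1 or 2 was left out and when control counts were thinned. Its range thus covers only the 11 alternatives in which it was tested. Control levels of Il34 were close to those of Tnfsf11, and its control mean of 0.916 CPM lay near the upper edge of the class under 1 CPM. In that class 27.9% of genes had 0 counts in every mutant sample, against 7.68% from 1 to under 5 CPM. Ccl2 also had 0 counts in all mutant samples, from control levels of at most 0.379 CPM, and was not tested.

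**Figure D4:**
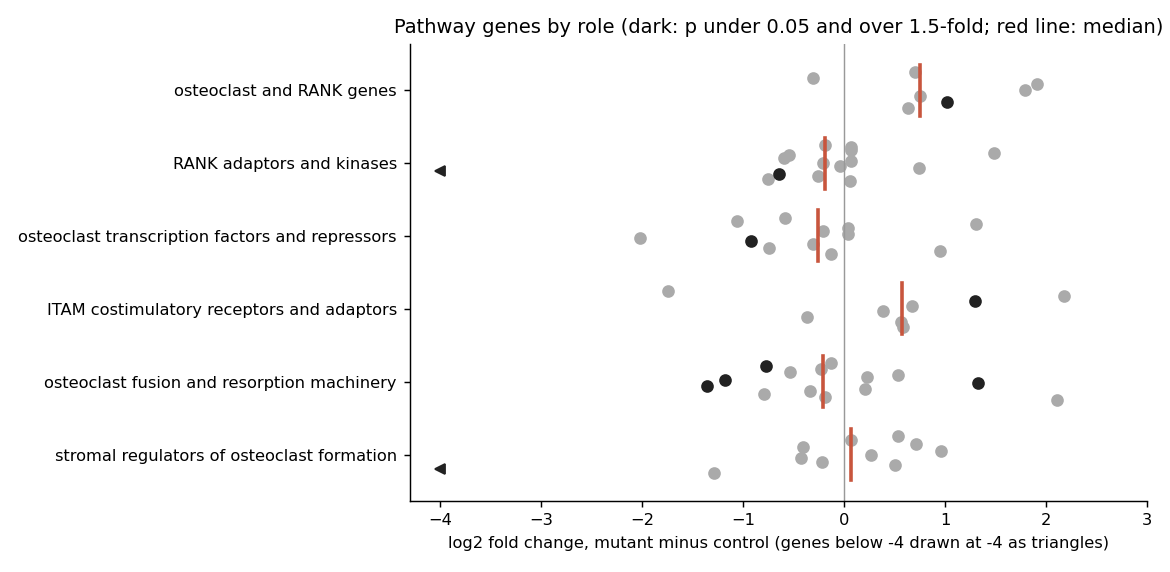
Log2 fold changes of mutant minus control for the tested genes of the set and of 5 lists of related genes, grouped by role, with dark points for genes past the study's threshold and a red line at each median. Medians run from 0.75 for the osteoclast and RANK genes to -0.26 for the transcription factors, and triangles mark Map3k14 and Il34, which had 0 counts in all mutant samples.

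Markers of other cells were summed in the same way, to give what else differed between samples beside the osteoclast genes. Of 15 macrophage and monocyte markers, the lineage that osteoclasts come from, 14 were tested and 0 passed the study's threshold, with a median log2 fold change of 0.33. Their summed level was 604, 618 and 208 CPM in control and 624, 481 and 535 CPM in mutant samples, led by Lyz2. Mutant sample 1 was the highest of the 6 samples in this sum as in the osteoclast marker sum, close above control samples 1 and 2, and the part of these cells in the osteoclast gene levels was not tested. Csf1r, the M-CSF receptor, had the smallest p of this list, with a log2 fold change of -0.81 (adjusted p = 0.405, edgeR).

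Neutrophil markers, of cells that also make Mmp9, summed to 8.51, 119 and 13.96 CPM in control and 37.3, 107 and 39.6 CPM in mutant samples. Control sample 2 and mutant sample 2 were the highest in these, and the part of these cells in the level of Mmp9 was not tested. Of 11 such markers, 10 were in the table and 7 were tested, and 1 was higher, S100a8, the most abundant over all samples (log2 fold change 2.25, adjusted p = 0.174, edgeR). Of the 7 tested, 4 had positive and 3 negative log2 fold changes, the negative ones S100a9, Camp and Ngp at -0.49, -0.52 and -1.63. S100a8 lost its direction after the length and GC correction, at -0.19, and Cxcr2, a defining receptor of neutrophils, was at 0, 0.577 and 0.116 CPM in controls and had 0 counts in every mutant sample. Lymphocyte markers, of which 5 of 10 were in the table and 3 were tested, gave 0 calls. They summed to 18.4, 25.04 and 8.21 CPM in control and 4.15, 29.5 and 12.5 CPM in mutant samples, led by Ighm, with Cd79a at 0.787, 1.04 and 0.376 CPM in controls and at 0 in all mutant samples.

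Erythroid markers summed to 823, 835 and 380 CPM in control and 1289, 926 and 2560 CPM in mutant samples, so every mutant sample lay above every control sample. The most abundant was Hbb-bs, which was higher with a log2 fold change of 1.81 (adjusted p = 0.0727, edgeR), while Hba-a2 was higher by 1.36 and Hba-a1 lower by a log2 fold change of -2.04 (adjusted p = 0.178 and 0.0460). Of the 8 erythroid markers 6 were tested, and after the length and GC correction Hbb-bs and Hba-a2 missed the threshold at 0.50 and 0.03. Hba-a1 and Hba-a2 are near-identical copies whose reads the counting can split either way, and Epb42, a red cell membrane protein, was at 0, 0.467 and 0.0578 CPM in controls and had 0 counts in all mutant samples.

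Osteoblast and osteocyte markers, which include the cells that make RANKL and osteoprotegerin, summed to 28377, 58945 and 31098 CPM in control and 29509, 26722 and 30499 CPM in mutant samples, led by Col1a1. Of 11 markers, 10 were in the table, 9 were tested and 0 passed, with a median log2 fold change of -0.44. The sum is mostly Col1a1. Odontoblasts, detected by Dspp, were also in the tissue, and which cells made these transcripts was not tested. The gene with the smallest p was Alpl, the mineralization enzyme, with a log2 fold change of -0.68 (adjusted p = 0.272, edgeR). Of the 9 tested, 4 had positive and 5 negative log2 fold changes, the positive ones Bglap, Bglap2, Ibsp and Spp1 at 0.24, 0.22, 0.43 and 0.83. The osteocyte genes Sost and Mepe are named after their values were seen. Sost had 3.52, 6.73 and 5.09 CPM in controls and 0, 0.342 and 4.13 CPM in mutants, and Mepe 0.379, 2.09 and 0.318 CPM against 0, 1.20 and 0 CPM. The part of these cells in the levels of Tnfsf11 and Tnfrsf11b was not tested.

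Skeletal muscle markers had the widest range of these lists as a ratio of the highest to the lowest sample. They summed to 8.77, 2692 and 27.4 CPM in control and 6085, 157 and 1012 CPM in mutant samples, led by Acta1, and 0 of the 8 passed, with a median of 1.49. Mutant sample 1 was the highest in the muscle sum as in the osteoclast marker sum. Mutant sample 3 was above mutant sample 2 in both sums, and control sample 2 was the highest control sample in both. Other orders differed. Control sample 1 was above control sample 3 in the osteoclast sum only, and control sample 2 was above mutant sample 3 in the muscle sum only. The 10 incisor markers, led by Amelx, summed to 87302, 104250 and 121010 CPM in control and 35410, 34725 and 72619 CPM in mutant samples, with 0 past the threshold and a median of -0.62. The medians of the muscle and incisor lists thus had opposite signs, and their part in the levels of the osteoclast genes was not tested.

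**Figure D5:**
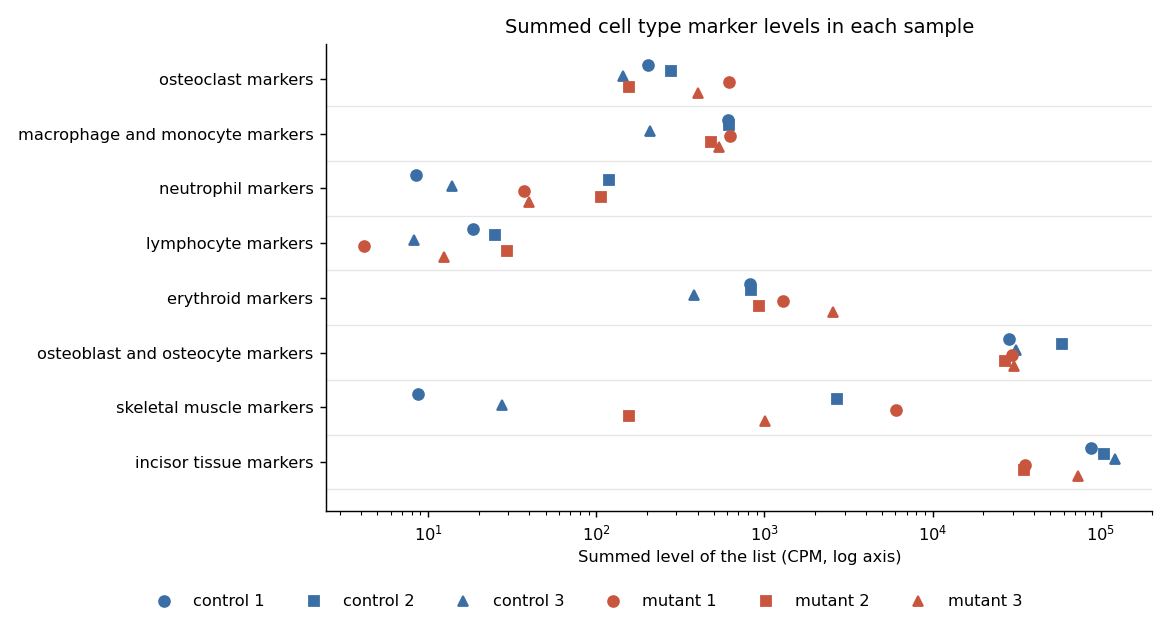
Summed level of each list of cell type markers in each sample, in CPM on a log axis, with blue symbols for control and red for mutant samples. Muscle markers run from 8.77 to 6085 CPM, osteoclast markers from 144.4 to 611.6 CPM, and mutant sample 1 is the highest sample in both lists.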

How the data were processed

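For their own tests the authors scaled libraries by the upper quartile. Partek Flow was used before that to trim the single reads and map them to the mouse genome. The estimated counts they deposited for the 6 samples were not normalized. TopHat2 2.0.8 and the build mm10 are named in the submitters' processing notes, and the counting model and annotation are not given in the sources used here. A deposited table of the authors' own comparison, with p-values and fold changes, was not used.

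Counts were rounded to whole numbers and fitted over all genes with edgeR 4.0.16 in R 4.3.3, with upper-quartile scaling, filterByExpr at its defaults (10 counts at least, 15 in all), no term besides genotype, a two-sided quasi-likelihood test and Benjamini-Hochberg adjustment over all genes tested. The approximate standard error of a log2 fold change was its size over the square root of F. Alternatives were limma 3.58.1 (log2 CPM, prior count 2), DESeq2 1.42.0, other scalings and filters, thinned control counts, a length and GC offset, a replicate block and the omission of each sample. The fit was tested on simulated data. Gene positions, GC content and lengths were read from GENCODE M21 (GRCm38), and promoters from RefSeq.

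The genes, lists and tests were chosen with earlier results of these data known. Named beside the 10 genes were Fgfr1 and Gli1, up to 3 genes a list in each direction with the smallest p among those past the study's threshold, otherwise the gene with the smallest p, the most abundant marker of each marker list and defining markers at 0, and any gene of the RANK, transcription factor, ITAM, machinery and stromal lists. Of the genes this rule selects, 1 is not reported here. Gli1, the driver's gene, had a log2 fold change of -0.45 (standard error 0.41).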

Additional observations from a re-analysis of the deposited data

How the results depend on the processing

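Past the study's threshold, the fit gave 1 of the 10 genes (Ctsk). It gave 0 under TMM, total counts, limma and the replicate block, and 2 without the filter on low counts (Ctsk and Tnfsf11). Over all 19060 genes that fit called 2250 higher and 2483 lower. With each sample left out it gave 0 to 4, with 0 without control sample 1. Without mutant sample 1 it gave 3 (Oscar, Dcstamp and Tnfsf11, all lower), beside 2110 higher and 2503 lower of 17227 genes. These 3 had 0 counts in mutant samples 2 and 3 and passed the filter there through the controls alone. Without mutant sample 2 it gave 4 (Acp5, Ctsk and Calcr higher, Tnfsf11 lower), beside 1906 higher and 2826 lower of 17099 genes. DESeq2, a mean of at least 50 counts, thinned control counts and the length and GC correction gave 1, which was Mmp9 in the last. The count at an adjusted p under 0.05 was 0 in all of these settings, although limma without the filter gave Tnfsf11 an adjusted p of 0.0275. The log2 fold changes ran from -0.23 to 1.10 for Acp5, -6.17 to 3.96 for Oscar, -2.46 to 3.92 for Calcr, -7.02 to 2.37 for Dcstamp and -2.24 to 0.16 for Tnfrsf11a with each sample left out, except that Dcstamp failed the filter without control sample 2. Dcstamp was -0.84 with limma, and S100a8 was -0.19 after the length and GC correction. The cause of these changes was not tested. The log2 ratio of Tnfsf11 to Tnfrsf11b was -1.57, -1.97 to -1.25 with each sample left out, and -4.19 with 0.5 counts added to both genes, which puts the 0 counts below the limit of 3.

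Replicate numbers are shared between the groups, and the deviations of same-numbered samples correlated at 0.05, 0.01 and 0.05. Such correlations cannot show whether the samples were paired. The labels state no pairing, whereas the study's methods mention 3 pairs of samples. With the replicate number as a block, Ctsk and Tnfsf11 missed the study's threshold (unadjusted p = 0.0509 and 0.111, edgeR). Oscar was then -2.17, Calcr -0.38 and Dcstamp -2.62, and the adjusted calls over all genes went from 1074 to 508. Leaving out 1 sample gave 76 (without control sample 3) to 606 (without mutant sample 1). The other settings gave 141 (length and GC correction) to 1609 (DESeq2). Depth limits Tnfsf11, since 3 counts are 0.655 CPM in mutant sample 1. It also limits Oscar and Calcr in mutant samples 2 and 3, where 3 counts are 0.256 and 0.302 CPM. For Dcstamp these 2 limits lay below the lowest control sample.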
